A study of Mus musculus with 6 samples.

Results

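Dpep1 encodes membrane dipeptidase 1, an enzyme anchored in the plasma membrane that removes glycine from leukotriene D4 and from other dipeptides. It is described here together with 9 genes for proteins that make or trim leukotrienes and prostaglandins, or, for Alox5ap, help an enzyme to do so. The rule took 10 gene symbols, of which 8 (Dpep1, Dpep2, Ggt5, Alox5ap, Lta4h, Ltc4s, Ptgs1 and Ptges) are among the 12966 genes of the table. The other 2, Ptgis and Hpgds, were not analysed here. The 10 symbols were chosen with the difference between the study's groups already known, so that difference is given for them as a description, with no test.

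RNA was sequenced from brown adipose tissue of male C57BL/6J mice, all 10 weeks of age. The control group (Ctrl, 3 libraries) carried floxed Bscl2 (Bscl2f/f). The other group (BKO, 3 libraries) carried the same floxed alleles plus a Cre recombinase under the Ucp1 promoter (Bscl2f/f Ucp1Cre), which is active in brown adipocytes. Bscl2 encodes seipin, a protein of the endoplasmic reticulum that acts in lipid droplet formation. Only BKO mice carried Cre, so an effect of Cre cannot be told apart from the loss of Bscl2. Whether the libraries of a group are from separate animals is not stated in the labels, so the errors given here are the spread between libraries, which may be technical. Values per library are given in the order of the replicate numbers.

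The values are FPKM, fragments divided by transcript length and by the number of mapped fragments, so levels can be set side by side between genes, and the number of reads behind them is unknown. As a check of the labels, Bscl2 was measured at 116, 104 and 106 FPKM in the control libraries and at 16.5, 16.9 and 18.9 FPKM in the BKO libraries, and fell by 2.57 on the log2(FPKM + 1) scale (limma with Benjamini-Hochberg adjusted p = 3.95e-05). The tissue's own markers were high in every library, the 12 brown adipocyte markers summing to between 19083 and 21552 FPKM. The libraries differed in skeletal muscle markers, whose sum ran from 88.8 FPKM in Ctrl-2 to 605 FPKM in Ctrl-1, with 387 FPKM in BKO-2. BKO-3 has no value between 0 and 0.486 FPKM, so the listing seems to depend on that library, and genes that were lower there may be missing. All listed values of BKO-3 sum to 2808874 FPKM, against 1119228 (BKO-2) to 1617963 (Ctrl-1) in the other libraries. The cause of this was not tested.

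Leukotrienes and prostaglandins are signalling lipids made from arachidonic acid. In the leukotriene branch, 5-lipoxygenase, helped by the protein that Alox5ap encodes, makes the unstable intermediate leukotriene A4. Lta4h turns this into leukotriene B4, which attracts white blood cells, whereas Ltc4s joins it to glutathione to give leukotriene C4. Outside the cell, a gamma-glutamyl transferase such as Ggt5 makes leukotriene D4, and dipeptidases such as Dpep1 and Dpep2 make leukotriene E4. In the prostaglandin branch, the cyclooxygenase encoded by Ptgs1 supplies prostaglandin H2, which Ptges turns into prostaglandin E2, a lipid that acts on adipocytes through receptors such as the one encoded by Ptger3. Of the leukotriene members, Alox5ap and Ltc4s are known mainly from myeloid and mast cells.

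The start regions of Dpep1 and Ltc4s, the tested members with the highest BKO to Ctrl ratio of means, and of Ptges, whose BKO values all lay below its Ctrl values, are shown to let a reader see what sequence precedes each gene. Each is the 250 bases before the RefSeq start (build GRCm38.p6), read 5′ to 3′ on the gene's strand. Dpep1 lies at chr8:123185985-123186234 on the plus strand, Ltc4s at chr11:50238533-50238782 on the minus strand and Ptges at chr2:30903298-30903547 on the minus strand. Capitals mark matches to the motifs searched for.
Dpep1: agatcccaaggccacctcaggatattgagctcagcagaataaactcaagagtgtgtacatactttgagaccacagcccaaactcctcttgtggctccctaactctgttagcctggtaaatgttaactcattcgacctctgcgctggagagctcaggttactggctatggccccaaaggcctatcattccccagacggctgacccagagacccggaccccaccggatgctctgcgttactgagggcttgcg
Ltc4s: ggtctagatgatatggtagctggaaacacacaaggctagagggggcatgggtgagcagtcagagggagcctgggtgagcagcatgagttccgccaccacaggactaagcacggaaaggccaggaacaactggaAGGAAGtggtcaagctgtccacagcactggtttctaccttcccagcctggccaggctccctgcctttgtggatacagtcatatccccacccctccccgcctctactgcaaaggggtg
Ptges: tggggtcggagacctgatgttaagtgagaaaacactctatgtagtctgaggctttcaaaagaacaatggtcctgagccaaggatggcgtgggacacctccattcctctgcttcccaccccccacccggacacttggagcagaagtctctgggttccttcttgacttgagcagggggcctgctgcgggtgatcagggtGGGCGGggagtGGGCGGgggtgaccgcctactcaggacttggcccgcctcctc
RefSeq start regions were found for 5 of the 8 members. On both strands, the search covered TATAAA as the TATA-type element, the letters CCAAT for the promoter element of that name, GGGCGG as the GC box, TGANTCA for the AP-1 factors and AGGAAG as the core bound by Ets factors. The motifs do not overlap one another in these windows. The Dpep1 window held none of these letters. The Ltc4s window held AGGAAG 117 bases before the start, a motif present in 29.5% of 32851 start regions of the same length. The Ptges window held GGGCGG at 53 and at 42 bases before the start, and 32.7% of start regions hold it. A match describes the letters and does not show a bound site.

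Dpep1 was the most abundant member over all 6 libraries, with a mean of 15.3 FPKM. It stood at 10.4, 10.5 and 12.7 FPKM in the controls and at 19.3, 20.3 and 18.5 FPKM in the BKO libraries. Every BKO library lay above every Ctrl library, and the libraries of a group differed little among themselves, the highest being 1.22 times the lowest in Ctrl and 1.097 times in BKO. The means were 11.2 ± 1.296 and 19.3 ± 0.898 FPKM (SD, n = 3 per group), a ratio of 1.73, and the difference was 0.74 on the log2(FPKM + 1) scale (SE 0.0927). In bulk tissue, more cells of a type that holds the transcript and more transcript per cell cannot be told apart.

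Dpep2, the dipeptidase gene of the same family that is known from myeloid cells, was the least abundant member. It was listed at 0.203 and 0.0607 FPKM in Ctrl-1 and Ctrl-2 and at 0 in Ctrl-3. The BKO libraries gave 0.913, 0.768 and 0.531 FPKM. The groups did not overlap, but all 6 values are under 1 FPKM, and since a listed 0 need not be a measured absence, no ratio is given. Its BKO-3 value of 0.531 FPKM is close to 0.486 FPKM, the lowest above 0 that is listed for that library. All Ctrl values of Dpep2 lie under that limit. That BKO-3 lay above Ctrl was therefore largely set by which genes are listed, and nothing is read from the lack of overlap. Its exons overlap those of 3 other annotated genes, including Dus2 on the opposite strand, whose reads could not be told apart without strand.

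Ltc4s, leukotriene C4 synthase, had the second highest mean and the highest ratio between groups among the tested members. Its values were 12.6, 9.25 and 7.35 FPKM in the controls and 21.8, 17.9 and 12.5 FPKM in the BKO libraries. The lowest BKO library, BKO-3, lay just below the highest control, Ctrl-1, so the groups overlapped. The means were 9.72 ± 2.63 and 17.4 ± 4.68 FPKM (SD, n = 3 per group), a ratio of 1.79, and the difference was 0.77 (SE 0.231) on the log2(FPKM + 1) scale. Its spread within a group was wider than that of Dpep1, with a highest to lowest ratio of 1.71 in Ctrl and 1.75 in BKO. The annotated exons of Ltc4s cover 1014 nt, the shortest of the 8 members, and 268 nt of them overlap an antisense gene.

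**Figure D1:**
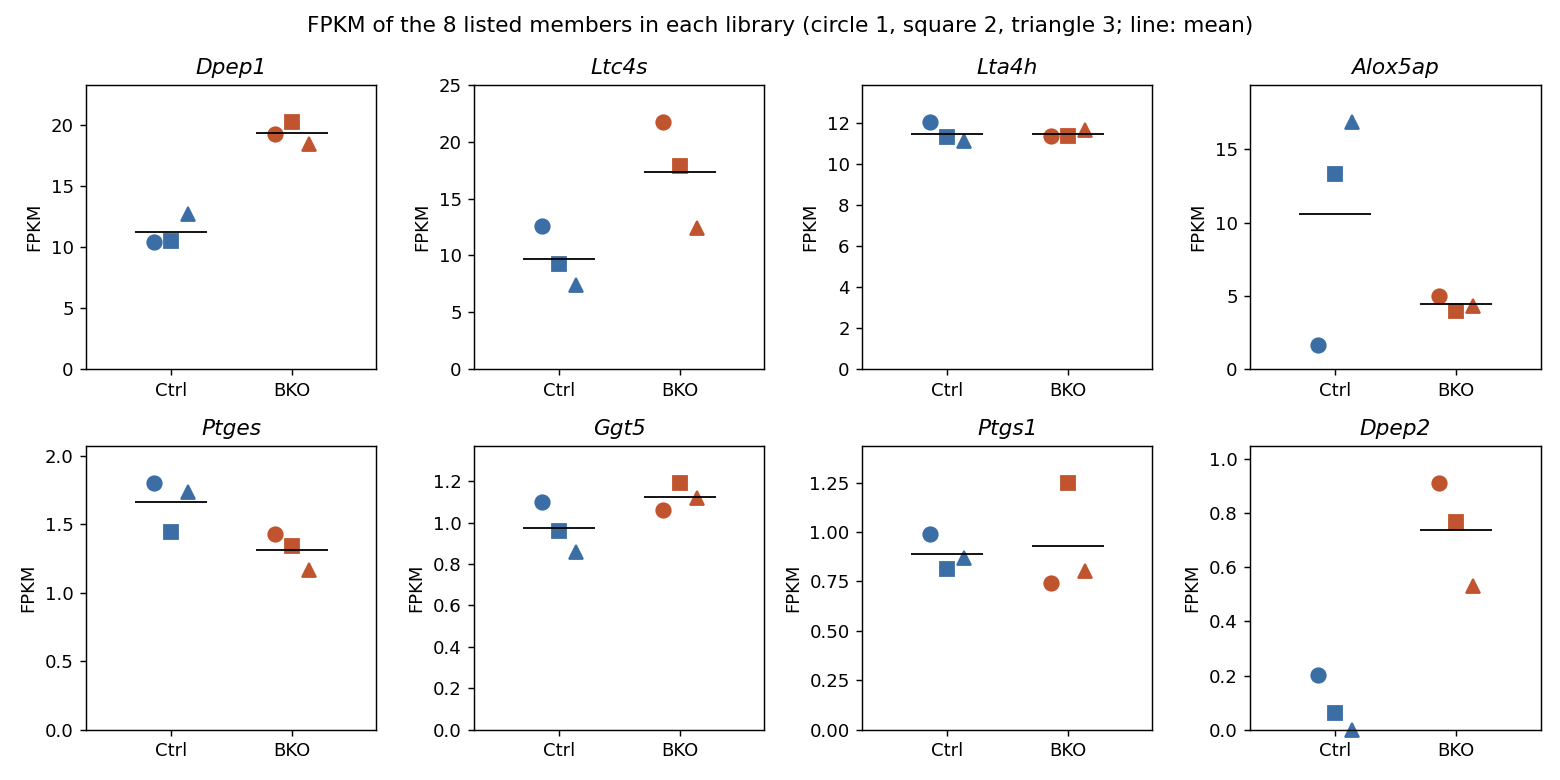
FPKM (vertical axis, from 0) of the 8 members in each library, Ctrl in blue and BKO in orange, with circles, squares and triangles for libraries 1, 2 and 3 and a line at the group mean (no line where a library is listed at 0). Dpep1 is higher in every BKO library, Ptges lower in every BKO library, and Alox5ap spans 1.64 to 16.9 FPKM within Ctrl. Dpep2 is also higher in every BKO library, which for BKO-3 was largely set by which genes are listed.

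Alox5ap, whose protein presents arachidonic acid to 5-lipoxygenase, varied more among the controls than between the groups. It stood at 1.64 FPKM in Ctrl-1, at 13.3 FPKM in Ctrl-2 and at 16.9 FPKM in Ctrl-3. The BKO libraries lay between these extremes, at 4.97, 3.99 and 4.30 FPKM. The highest control was 10.3 times the lowest, against 1.25 times in BKO. The difference between groups was -0.70 (SE 0.651) on the log2(FPKM + 1) scale, and it ranged from -1.57 without Ctrl-1 to -0.19 without Ctrl-3, so its size rests on single control libraries. Ctrl-1 had the highest control value for Ltc4s, Lta4h, Ptges, Ggt5, Ptgs1 and Dpep2, and the lowest for Dpep1. Ctrl-1 also had the highest skeletal muscle sum, 605 FPKM, and BKO-2, next at 387 FPKM, was the lowest of the BKO libraries for Alox5ap, within 1.25 times of the others. The remaining libraries went the other way. Ctrl-3 had a higher muscle sum than Ctrl-2, 152 against 88.8 FPKM, and more Alox5ap. BKO-1 had a higher muscle sum than BKO-3, 162 against 126 FPKM, and more Alox5ap. The part of muscle in the Alox5ap value was not tested. An antisense gene overlaps 189 nt of its 1420 nt of exons.

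Lta4h, the leukotriene A4 hydrolase, was the steadiest member. It stood at 12.1, 11.3 and 11.1 FPKM in the controls and at 11.4, 11.4 and 11.7 FPKM in the BKO libraries. The groups overlapped and the means were 11.5 ± 0.4998 and 11.5 ± 0.164 FPKM (SD, n = 3 per group). The difference was -0.00 on the log2(FPKM + 1) scale, with a 95% interval of -0.16 to 0.16, so a difference within that range is not excluded. Ggt5, gamma-glutamyl transferase 5, was low, at 1.0999, 0.959 and 0.857 FPKM in Ctrl and 1.063, 1.193 and 1.117 FPKM in BKO, and its groups overlapped.

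The prostaglandin members were both low. Ptges, the inducible microsomal prostaglandin E synthase, stood at 1.805, 1.44 and 1.74 FPKM in the controls and at 1.43, 1.34 and 1.17 FPKM in the BKO libraries. All BKO values lay below all Ctrl values, the gap between BKO-1 and Ctrl-2 being small beside the spread, and the difference was -0.20 (SE 0.104) on the log2(FPKM + 1) scale. Ptgs1, cyclooxygenase 1, stood at 0.989, 0.813 and 0.867 FPKM in Ctrl and 0.741, 1.25 and 0.803 FPKM in BKO, where BKO-2 was the highest library of all and BKO-1 the lowest. The groups overlapped.

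The order of levels differed between the groups. In Ctrl, the means of Lta4h, Dpep1, Alox5ap and Ltc4s were 11.5, 11.2, 10.6 and 9.72 FPKM, and the libraries of neighbours in that order overlapped. In BKO the order was Dpep1, Ltc4s, Lta4h and Alox5ap, at 19.3, 17.4, 11.5 and 4.42 FPKM. There, Dpep1 and Ltc4s overlapped, whereas every Ltc4s value lay above every Lta4h value and every Lta4h value above every Alox5ap value. Ptges, Ggt5, Ptgs1 and Dpep2 followed in both groups. In BKO the libraries of Ggt5 overlapped those of Ptges and of Ptgs1, and in Ctrl those of Ggt5 and Ptgs1 overlapped, while Ptges lay above and Dpep2 below. In BKO, Dpep2 overlapped Ptgs1.

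Genes averaging 1 FPKM or more over all libraries, 11397 in number, were fitted together, and 6 of the 8 members were among them, Ggt5 just inside at 1.05 FPKM and Ptgs1 just outside at 0.910 FPKM. As a count only, 1 member of 6 (Dpep1, higher in BKO) was past an adjusted p of 0.05 (limma, Benjamini-Hochberg), beside 0.158% of all genes tested that were past it and higher and 0.00877% that were past it and lower. This is no test of Dpep1 and nothing is read from the count, because the members were chosen on this comparison. Over the 16 alternative fits the difference of Dpep1 lay between 0.69 and 0.83, but Dpep1 was past the threshold in only 6 of them. Among the 6, 1 was higher and 1 lower without overlap of the groups, against 9.06% and 6.82% of all genes tested. The median difference of the 6 was 0.05, beside 0.01 over all genes tested.

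**Figure D2:**
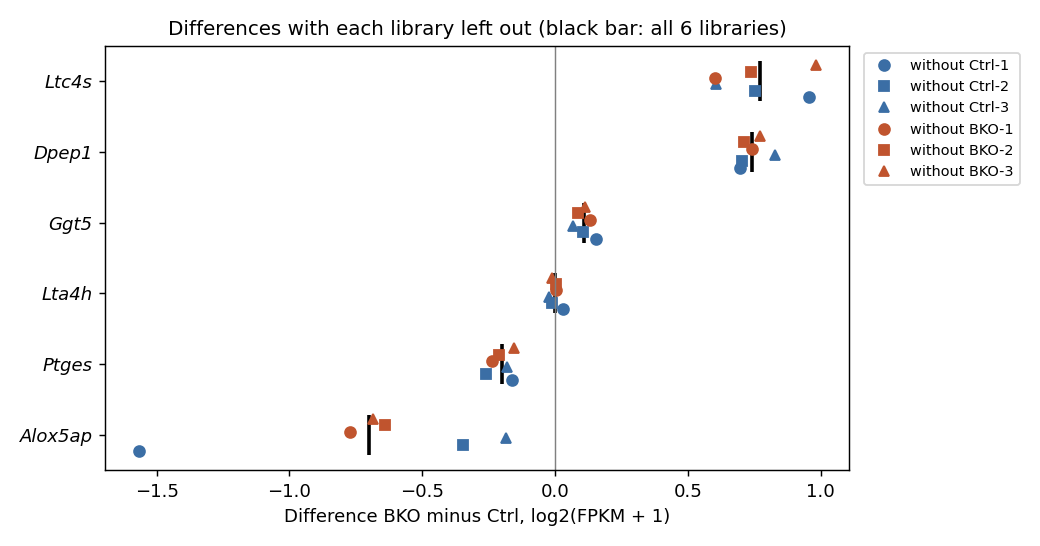
Difference BKO minus Ctrl on the log2(FPKM + 1) scale (horizontal axis) for the 6 members in the fit, with all 6 libraries (black bar) and with each library left out (blue, a Ctrl library; orange, a BKO library). Alox5ap moves between -1.57 and -0.19, Ltc4s between 0.60 and 0.98, and Dpep1 stays between 0.69 and 0.83.

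The other genes of these pathways were described from 6 lists holding 73 genes, of which 45 are listed and 41 were tested. None of the 41 passed the test in either direction (limma, Benjamini-Hochberg, lowest adjusted p = 0.248, for Anpep), and 0 passed in any of the 16 alternative fits. Of all genes tested, 0.158% passed and were higher and 0.00877% passed and were lower. A count of 0 here and in each list below is thus near the share over all genes, and does not show that a gene was unchanged. Before adjustment, 6 of them were higher and 5 lower at a p below 0.05, against 6.63% and 3.52% of all genes tested. The median difference of the 41 was 0.03.

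Upstream of the leukotriene members, the 7 tested genes of the list for fatty acid release and the lipoxygenase step gave 0 higher and 0 lower, with a median of 0.11. Alox5 and Pla2g4a were not analysed here. The most abundant were Gpx4, a glutathione peroxidase that reduces lipid peroxides, with means of 1058 ± 98.8 and 1081 ± 124 FPKM for Ctrl and BKO (SD, n = 3 per group), Pla2g16, an adipose phospholipase, with 125 ± 9.65 and 126 ± 13.9 FPKM, and Pla2g12a with 40.9 ± 1.88 and 44.2 ± 4.004 FPKM.

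The list of 7 tested genes for conjugation, trimming and breakdown gave 0 higher and 0 lower, with a median of -0.04. Mgst2, a microsomal glutathione transferase that can also make leukotriene C4, stood at 6.72, 6.83 and 2.52 FPKM in the controls and at 3.32, 2.60 and 1.84 FPKM in the BKO libraries. Ctrl-3 fell among the BKO libraries, and the difference was -0.76 (SE 0.319, limma with Benjamini-Hochberg adjusted p = 0.489). Mgst3, a related transferase, stood at 31.1 ± 5.94 and 25.2 ± 1.597 FPKM (adjusted p = 0.542 by limma). Mgst1, at 602 ± 36.4 and 586 ± 22.4 FPKM, was the most abundant gene of the list. Cyp4f13, a cytochrome P450 of the family that oxidises leukotriene B4, stood at 18.5 ± 0.695 and 15.8 ± 0.184 FPKM without overlap (adjusted p = 0.345 by limma). Anpep, a membrane aminopeptidase, stood at 1.29 ± 0.246 and 2.34 ± 0.450 FPKM, again without overlap. Dpep3, Ggt1 and Ggt7 were not analysed here.

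The glutathione and dipeptide list gave 0 higher and 0 lower among 10 tested genes, with a median of 0.02. Before adjustment, 2 of the 10 were higher and 1 lower at a p below 0.05 (limma), against 6.63% and 3.52% of all genes tested. The most abundant were Oplah, at 69.5 ± 3.70 and 72.7 ± 3.52 FPKM, Npepl1, at 39.04 ± 2.31 and 37.3 ± 0.790 FPKM, and Lap3, at 32.7 ± 0.527 and 32.2 ± 2.05 FPKM (SD, n = 3 per group).

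**Figure D3:**
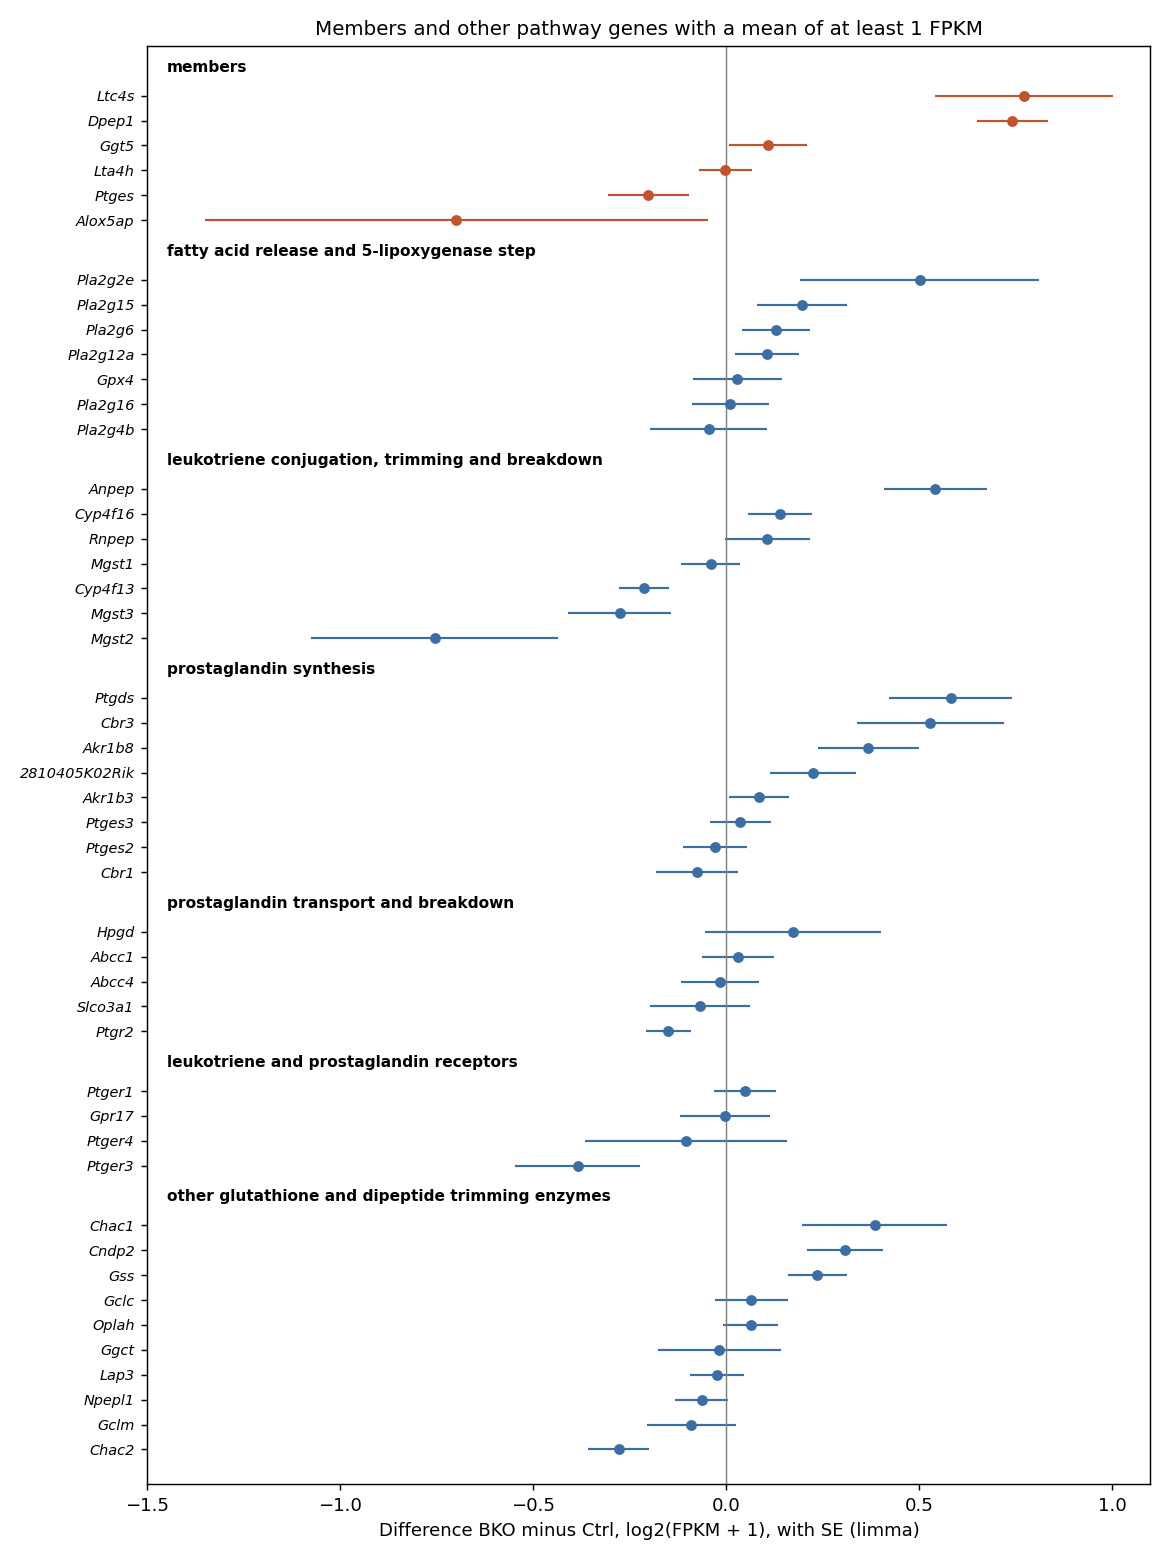
Difference BKO minus Ctrl on the log2(FPKM + 1) scale (horizontal axis), with the SE from limma, for the 6 members in the fit (orange) and the 41 tested genes of the 6 pathway lists (blue). None of the 41 blue genes passed the test, and Alox5ap has the widest error, an SE of 0.651.

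In the prostaglandin branch, the list for synthesis gave 0 higher and 0 lower among 8 tested genes, with a median of 0.15. The constitutive prostaglandin E synthases were far more abundant than Ptges on the FPKM scale. Ptges3 stood at 51.9 ± 3.38 and 53.3 ± 3.54 FPKM and Ptges2 at 45.7 ± 2.80 and 44.8 ± 3.62 FPKM, Ctrl before BKO, with overlapping groups for both. Cbr1, a carbonyl reductase that acts on prostaglandin E2, stood at 45.5 ± 3.55 and 43.3 ± 5.54 FPKM. Ptgds, prostaglandin D synthase, stood at 4.01, 5.76 and 3.91 FPKM in the controls and at 8.33, 7.57 and 5.97 FPKM in the BKO libraries. Its groups did not overlap, and the difference of 0.58 (SE 0.160) did not pass the test (limma with Benjamini-Hochberg adjusted p = 0.290). Tbxas1, thromboxane synthase, known from platelets and macrophages, was below the filter, at 0.528, 0.216 and 0.250 FPKM in Ctrl and 0.942, 0.880 and 0.805 FPKM in BKO. Its Ctrl-2 and Ctrl-3 values lie under 0.486 FPKM, the lowest above 0 that is listed for BKO-3. That BKO-3 lay above them was therefore largely set by which genes are listed. Ptgs2 was not analysed here.

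Prostaglandin breakdown and transport gave 0 higher and 0 lower among 5 tested genes, with a median of -0.02. Ptgr2, a prostaglandin reductase, was the most abundant at 105 ± 1.57 and 94.7 ± 2.10 FPKM, without overlap (limma with Benjamini-Hochberg adjusted p = 0.450). The transporter gene Abcc4 had means of 5.39 ± 0.529 and 5.32 ± 0.525 FPKM, and its relative Abcc1 of 4.92 ± 0.521 and 5.04 ± 0.261 FPKM. Hpgd, which inactivates prostaglandins, stood at 2.44 ± 0.547 and 2.96 ± 1.11 FPKM. Ptgr1, which oxidises leukotriene B4 and reduces oxidised prostaglandins, was below the filter at 0.640 ± 0.0461 and 0.898 ± 0.218 FPKM, and Slco2a1 was not analysed here.

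Receptors gave 0 higher and 0 lower among 4 tested genes, with a median of -0.05. Ptger1 was the most abundant on average, at 18.1 ± 1.596 and 18.7 ± 0.638 FPKM. Ptger3, the prostaglandin E2 receptor that lowers cyclic AMP in adipocytes, stood at 17.7, 21.9 and 14.4 FPKM in the controls and at 15.4, 11.3 and 13.8 FPKM in BKO. BKO-1 lay above Ctrl-3, and the difference of -0.39 (SE 0.163) did not pass the test (limma with Benjamini-Hochberg adjusted p = 0.489). Ptger4, a receptor that raises cyclic AMP, stood at 3.73 ± 1.06 and 3.49 ± 1.38 FPKM. Cysltr1, the receptor for leukotriene D4, was below the filter, at 0.378 ± 0.308 and 0.432 ± 0.101 FPKM. Ltb4r1 and Ptgir were not analysed here.

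Markers of other cell types were measured beside the members. Of 13 tested macrophage markers, 4 passed the test and were higher in BKO (limma, Benjamini-Hochberg), beside 0.158% of all genes tested. The sum of the 15 listed was 61.7 to 96.0 FPKM in Ctrl and 168 to 209 FPKM in BKO, with none listed at 0. Lyz2, a lysozyme gene, rose 3.54-fold, from 23.8 ± 6.20 to 84.2 ± 10.5 FPKM (limma with Benjamini-Hochberg adjusted p = 0.0195). C1qa, a complement gene of resident macrophages, stood at 9.65 ± 3.13 and 18.01 ± 3.30 FPKM and did not pass (adjusted p = 0.248 by limma). Within each group, the order of the libraries by the macrophage sum was that of Ltc4s and of Dpep2, and was not that of Dpep1 or of Alox5ap. Alox5ap, also known from myeloid cells, had the reverse order in Ctrl. Its mean was lower in BKO, at 4.42 FPKM against 10.6 FPKM in Ctrl. In Ctrl the order by the macrophage sum was also that of Lta4h, of Ggt5 and of the fibroblast and preadipocyte sum, though not in BKO. With 3 libraries per group an order is easily shared. The share of all genes with it was not counted, these orders were not tested, and nothing is read from them. The median difference of the 13 was 0.93. For fibroblasts and preadipocytes, 0 of 12 tested markers passed, with a median of 0.41, and the sum was 360 to 472 FPKM in Ctrl and 474 to 560 FPKM in BKO. The part of either cell type in the values of Dpep1, Dpep2, Ltc4s and Alox5ap was not tested. Mast cells are a known site of Ltc4s, and 3 of their 10 markers are listed (0 of 3 passed), the sum being 8.97 to 11.04 FPKM in Ctrl and 10.1 to 10.99 FPKM in BKO, while their proteases were not analysed here. Endothelial (0 of 12) and smooth muscle (0 of 12) markers did not pass, with medians of -0.01 and 0.09. Of the neutrophil and eosinophil, lymphocyte and mesothelial lists 1 gene each was tested, and 0 passed. For brown adipocytes 0 of 12 and for skeletal muscle 0 of 10 passed, with medians of 0.00 and 0.02.

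The genes whose profile over the 6 libraries was most like that of Dpep1 were Slc9a3r1, S100a13, Cerk, Mreg and Orm3. Likeness was the root mean square difference of log2(FPKM + 1) centred on each gene's mean, and was 0.0747 for Slc9a3r1 and 0.102 for Orm3. Slc9a3r1, a scaffold for sodium-proton exchangers, stood at 3.12, 2.76 and 3.40 FPKM in Ctrl and 6.23, 6.87 and 5.79 FPKM in BKO. S100a13, a calcium-binding protein, stood at 126, 114 and 137 FPKM in Ctrl and 183, 206 and 200.5 FPKM in BKO. Cerk, ceramide kinase, stood at 2.52 ± 0.328 and 4.4998 ± 0.649 FPKM, Mreg at 2.40 ± 0.288 and 5.06 ± 0.800 FPKM, and Orm3 at 10.4 ± 1.26 and 16.8 ± 2.33 FPKM (SD, n = 3 per group). All 5 were higher in every BKO library, which the measure selects for.

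**Figure D4:**
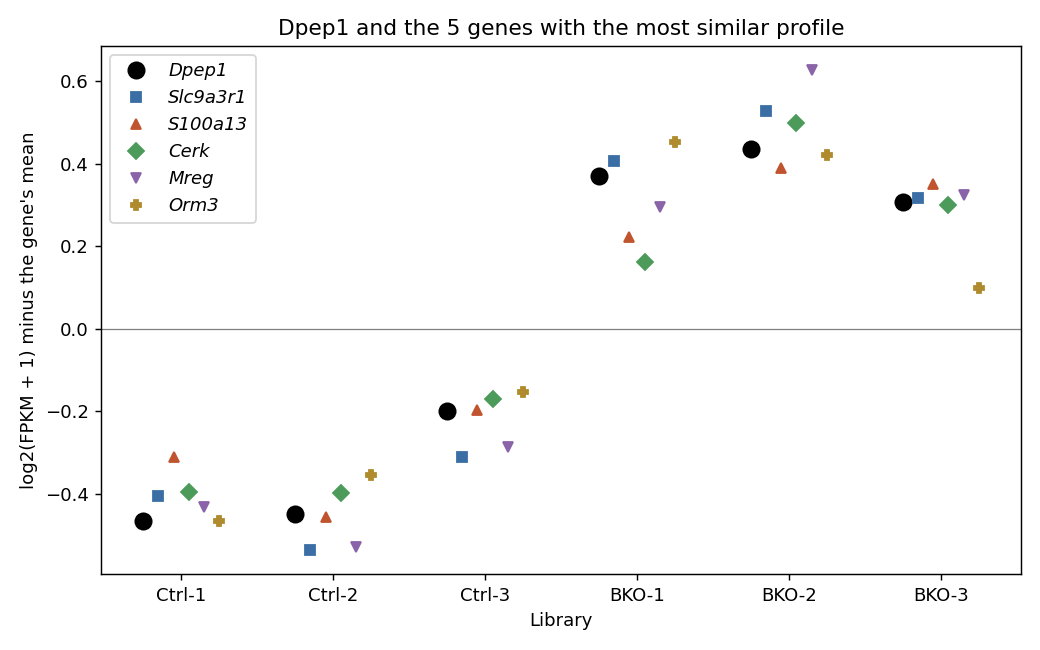
Level of Dpep1 (black circles) and of the 5 genes most like it, as log2(FPKM + 1) minus each gene's mean (vertical axis), in each of the 6 libraries (horizontal axis). All 6 genes lie below 0 in the Ctrl libraries and above 0 in the BKO libraries, and Slc9a3r1 is nearest to Dpep1 with a root mean square difference of 0.0747.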

How the data were processed

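The submitters' processing notes name Cufflinks 2.2.1, TopHat2 2.0.12 and CASAVA 1.8, and as the genome NCBIM37. No options, annotation or strand setting was found in the labels. Per the labels, Trizol and a TruSeq RNA kit were used. The authors deposited FPKM per gene. Because these are not counts, tests used a log scale, and read depth is unknown. Table columns follow the names in the labels' descriptions, where MT means Ctrl and WT means BKO, and Bscl2 checked this.

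After log2(FPKM + 1), limma 3.58.1 (R 4.3.3) was fitted to the 11397 of 12966 genes averaging 1 FPKM or more, with an intensity trend, without covariates, and with two-sided Benjamini-Hochberg adjustment at 0.05. This scale understates differences of low genes. Ratios are of mean FPKM. The steps were tested on simulated data.

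The members, lists and named genes were chosen with earlier results of these data known. Named were Bscl2, the members, passing genes and the 3 most abundant of each pathway list, key enzymes and receptors, the 2 most abundant macrophage markers (other marker lists are summarised), and the 5 genes most like Dpep1. Anpep was named after its values were seen. Exon lengths and overlaps are from GENCODE vM21, on another build, and start regions from RefSeq. Alternatives changed the pseudocount, filter, scaling, empirical Bayes options or weights, added a replicate block, or left out 1 library.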

Additional observations from a re-analysis of the deposited data

How the results depend on the processing

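Over all genes tested, 19 passed, against 12 with no filter on low values, 29 with a filter of at least 1 FPKM in 3 libraries, 33 with robust empirical Bayes, 54 with array weights, and 6 to 44 with 1 library left out (6 without BKO-1, 9 without Ctrl-2 and 44 without BKO-3). Of the members, 1 passed, against 0 with no filter, 0 with median ratio scaling, 0 with quantile normalization, 0 without the intensity trend, and 0 to 1 with 1 library left out. The cause was not tested. The 1 was Alox5ap without Ctrl-1 and Dpep1 without Ctrl-3, which are counts and no test of either, since the members were chosen on this comparison. The replicate numbers are not known to pair the libraries: the deviations of same-numbered libraries correlated at 0.196, -0.104 and -0.100 for numbers 1, 2 and 3, and Ctrl-1 alone correlated best with its own number. With a replicate block, 25 genes and 1 member passed, the member being Ltc4s, and 0 other pathway genes. The count of other pathway genes past the threshold was 0 in all 16 alternatives, with 6 to 15 at an unadjusted p below 0.05. Of 750 recomputed differences of members and pathway genes, 6 moved by more than the spread within groups. The difference had the other sign in at least 1 alternative for 16 of the 47 genes, none of them past the threshold in the reported fit, among them Lta4h (-0.02 to 0.03), Ptger4 (-0.29 to 0.17) and Ggct (-0.12 to 0.14). Depth is unknown, which limits members near or below 1 FPKM (Ggt5, Ptgs1, Dpep2 and Ptges) most.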

Other observations

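The protein-coding genes next to Dpep1 and Ltc4s, looked up after the members' values were seen, gave no calls. Of all genes tested, 0.158% passed and were higher and 0.00877% passed and were lower. The lack of calls is thus near that share and does not show that these genes were unchanged. Beside Dpep1, Chmp1a, a gene of membrane sorting, had means of 23.7 ± 2.22 and 24.1 ± 1.82 FPKM for Ctrl and BKO (SD, n = 3 per group, limma with Benjamini-Hochberg adjusted p = 0.964), and Sult5a1 at 1.32 ± 0.210 and 1.75 ± 0.424 FPKM (adjusted p = 0.626 by limma). Beside Ltc4s, Mgat4b, a glycosyltransferase gene, stood at 28.05 ± 3.33 and 30.2 ± 1.61 FPKM (adjusted p = 0.765 by limma), and Maml1 at 2.996 ± 0.380 and 2.85 ± 0.293 FPKM (adjusted p = 0.908 by limma). Uspl1, beside Alox5ap, stood at 9.09, 8.07 and 10.1 FPKM in the controls. Its Ctrl-1 value lay between those of Ctrl-2 and Ctrl-3, whereas Alox5ap was lowest in Ctrl-1, at 1.64 FPKM. The cause of the low Alox5ap value was not tested.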
